A study of Cucumis melo with 27 samples.

Results

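Fruits of the melon (Cucumis melo) cultivar F39 harvested 40 days (d) after flowering were compared with fruits of the same cultivar harvested at 20-25 d. Each stage was represented by 3 RNA-seq libraries, so that the comparison rests on 6 of the 27 libraries in the series, selected by their titles. Plants grew in the field under drip irrigation, and no treatment distinguished the stages. The labels do not state whether the libraries of a stage came from separate plants, so p-values measure the spread between libraries, which may be technical. The other libraries used here for reference were F39 leaf (14 d old), F39 fruit at 30-35 d, and fruit of a second cultivar, TTDV, at 20-25, 30-35, 40 and 45 d, with 3 libraries each. For the 6 libraries compared, the number in the title equals the number in the file. For 12 libraries in 4 groups (TTDV at 20-25, 30-35 and 40 d and F39 at 45 d) these numbers differ, and those groups are given as attached in GEO, with the values by library number beside them.

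Melon fruit passes from expansion to ripening, when flesh softens, sugars accumulate, pigments change and, in climacteric types, ethylene production rises and aroma volatiles form. These changes are accompanied in fleshy fruits by a broad replacement of the transcripts of growing tissue by those of ripening tissue. The genes carry only MELO3C identifiers in the files, and the reference gene table matched 0 of the 25200 identifiers. No function is therefore assigned to any gene below, and the tissue label could not be checked against marker genes.

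Total counts were 12611182, 15982120 and 8507660 in replicates 1, 2 and 3 of 20-25 d, and 7446893, 6500255 and 9249062 at 40 d. All libraries of 20-25 d were thus deeper than replicates 1 and 2 of 40 d. Spearman correlations across 10472 genes were 0.905 to 0.915 within 20-25 d and 0.619 to 0.735 between the stages. Within 40 d, replicates 1 and 3 correlated at 0.956, whereas replicate 2 correlated with them at 0.885 and 0.869. Replicate 2 of 40 d was nearest, at 0.897, to replicate 3 of TTDV 30-35 d (TTDV 40 d by library number), while each of the other 5 libraries was nearest to a library of its own stage.

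Replicate 2 of 40 d also went in part against its cultivar label. After its values had been seen, genes were sought that separate the cultivars in libraries outside the comparison. A TTDV-side gene had at least 1 CPM (the usual scale for counts of a gene, relative to the total counts of a library) in all 9 libraries that are TTDV under both matchings, and under 0.1 CPM in F39 leaf and F39 30-35 d (6 libraries). There were 4 such genes, and 1 gene with the reverse pattern. Replicate 2 held 33 counts of MELO3C027442.2, 22 of MELO3C031042.2, 23 of MELO3C034833.2 and 0 of MELO3C019418.2. Over the same 4 genes, replicates 1 and 3 of 40 d had 0 and 2 counts, and those of 20-25 d had 0, 0 and 1. Their summed level was 12 CPM in replicate 2, against 37.4 to 52.4 CPM in the 9 TTDV libraries. The F39-side gene, MELO3C013365.2, stood at 14, 9.57 and 9.17 CPM in the 20-25 d libraries and at 1.88, 0 and 2.05 CPM at 40 d. A count of 0 in replicate 2 allows up to 0.462 CPM (3 counts, counting error only). Another gene, MELO3C035133.2, missed the F39-side rule because it reached 0.196 CPM in a TTDV library. It had 6.0 to 11.9 CPM in F39 leaf, 10.1 to 56.4 CPM at F39 30-35 d, and 6.98, 3.85 and 7.68 CPM at 40 d. Replicate 2 thus also held transcripts of a gene that stayed at or below 0.196 CPM in the 9 TTDV libraries. The library labelled replicate 2 of F39 40 d carried transcripts of TTDV-side genes that no other library of the comparison had beyond 2 counts. The origin of these counts was not tested. Numbers of called genes and several descriptions are given with and without this library, and the other results include it.

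**Figure D1:**
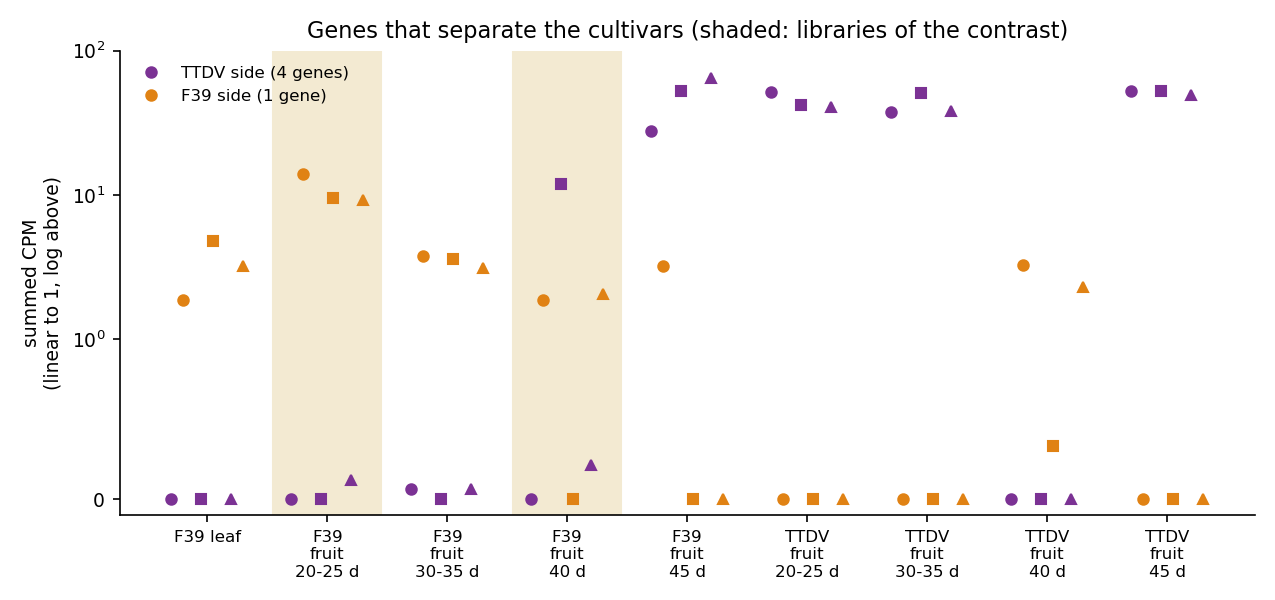
Summed CPM (linear up to 1, logarithmic above) of 4 genes that mark TTDV and of 1 gene that marks F39, in each of the 27 libraries, grouped as attached in GEO. Circles, squares and triangles are replicates 1, 2 and 3, and the stages compared are shaded. In the 40 d group, replicate 2 has 12 CPM of the TTDV-side genes, against 0 and 0.216 CPM in replicates 1 and 3, and has no count of the F39-side gene. A gene not shown, MELO3C035133.2, had 3.85 CPM in replicate 2 and at most 0.196 CPM in the libraries that are TTDV under both matchings.

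The transcriptome of F39 fruit differed widely between the stages. Of 15130 genes tested, 1692 were higher at 40 d (11.2% of genes tested) and 2262 were lower (15%), together 3954 or 26.1% (quasi-likelihood F-test of edgeR, with p adjusted by the Benjamini-Hochberg method and called under 0.05). Without replicate 2 of 40 d, 1187 genes were higher (7.6%) and 1407 lower (9.01%), together 2594 of 15620 tested, or 16.6%, and 2475 genes were called in the same direction in both fits. In tissue RNA, fewer cells of a type and less RNA per cell cannot be told apart.

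The median fall was larger than the median rise on the log2 scale. The median fold change, as log2 of 40 d over 20-25 d, was 1.77 for genes that rose (quartiles 1.24 and 2.86) and -2.60 for genes that fell (quartiles -4.33 and -1.55), beside -0.06 for all genes tested. More than 4-fold changes were found for 735 of the genes that rose and 1426 of those that fell, and more than 64-fold changes for 111 and 255. Without replicate 2 the medians were 1.93 and -2.98, with 68 and 221 genes past 64-fold. Among the genes that fell, 2225 (98.4%) had every 20-25 d library above every 40 d library, and 1412 (83.5%) of those that rose had the reverse. Over all genes tested, 30.5% and 13.6% had libraries separated in these directions. These counts rest on CPM of the library total, in which the median gene was lower at 40 d (log2 difference -0.27, and -0.05 with the TMM factors of the fit). With TMM scaling 2205 of the genes that fell (97.5%) and 1579 of those that rose (93.3%) were separated, beside 25.2% and 19.5% of all genes tested.

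The balance of rises and falls varied with abundance. Among 2435 genes averaging under 1 CPM over the 6 libraries, 63 rose and 72 fell. From 1 to 5 CPM 69 rose and 391 fell of 2610, and from 5 to 20 CPM 299 and 692 of 3531. From 20 to 100 CPM the numbers were 796 and 725 of 4489, and above 1000 CPM they were 38 and 24 of 124. In this fit the excess of falls thus lay between 1 and 20 CPM and was not seen in the scarcest genes. Falls outnumbered rises under every setting tried. They did so least with only the 15 libraries whose numbers agree, where 1832 genes rose and 1864 fell, so the size of the excess depended on the libraries fitted. The greater depth at 20-25 d bears on scarce genes, and its part in this excess was not tested.

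**Figure D2:**
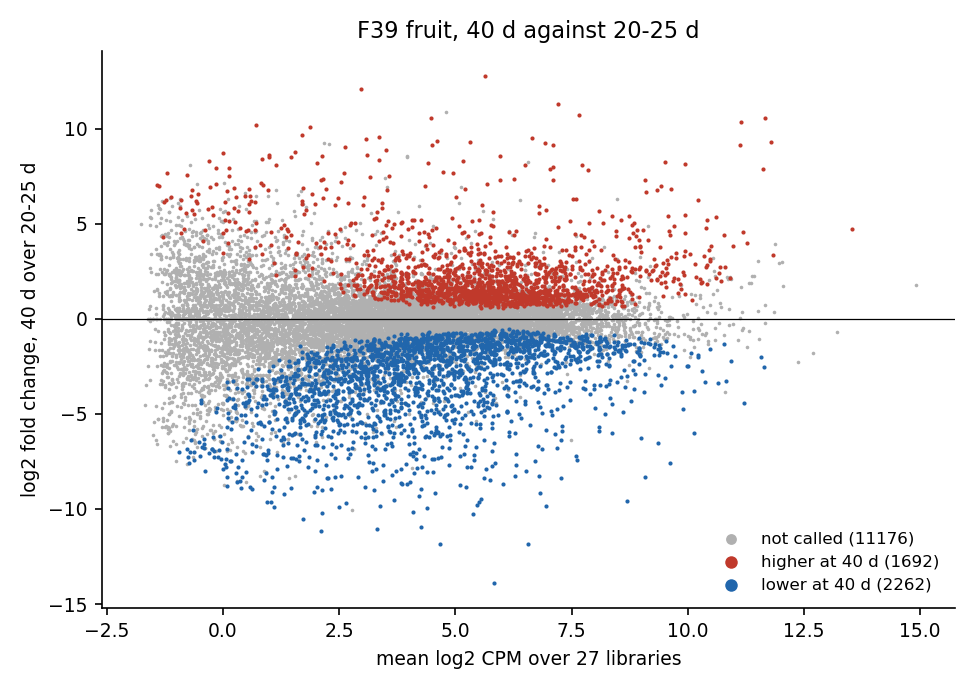
Log2 fold change of each of the 15130 genes tested (40 d over 20-25 d) against its mean log2 CPM over the 27 libraries, each point a gene. Red points are the 1692 genes higher and blue points the 2262 genes lower at 40 d, and grey points were not called; the median abundance was 5.68 for the red and 4.30 for the blue genes.

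The genes with the largest gain in CPM among called genes with separated libraries were MELO3C020432.2 and MELO3C010776.2. MELO3C020432.2 stood at 902, 1148 and 696 CPM in the 20-25 d libraries and at 15420, 24667 and 20545 CPM at 40 d, a log2 fold change of 4.75 (SE 0.88, edgeR adjusted p = 0.00104). Its lowest 40 d library was thus far above its highest 20-25 d library. MELO3C010776.2 rose from 77.3, 32.2 and 45.1 CPM to 8309, 14307 and 6634 CPM, a log2 fold change of 7.90 (SE 1.43, edgeR adjusted p = 8.97e-04). Both rises were also called without replicate 2 of 40 d, with log2 fold changes of 4.50 and 7.42. In leaf MELO3C020432.2 stood at 723 to 826 CPM and MELO3C010776.2 at 0.888 to 8.60 CPM. At 30-35 d replicates 1, 2 and 3 had 921, 30788 and 5813 CPM of MELO3C020432.2 and 44.6, 9287 and 1944 CPM of MELO3C010776.2. Replicate 1 was thus at the young-fruit level for both genes, and replicate 2 at or above the 40 d level.

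By the same rule for called genes, the largest losses in CPM were those of MELO3C002874.2 and MELO3C023537.2. MELO3C002874.2 fell from 5845, 3488 and 5084 CPM to 373, 17.5 and 467 CPM, a log2 fold change of -3.81 (SE 1.02, edgeR adjusted p = 0.00979). Replicate 2 was the lowest 40 d library by a wide margin, and without it the value was -3.27 (edgeR adjusted p = 0.0314). MELO3C023537.2 went from 6723, 7308 and 4207 CPM to 1706, 686 and 1504 CPM, a log2 fold change of -1.98 (SE 0.56, edgeR adjusted p = 0.0127). This call was lost without replicate 2 of 40 d (-1.72, edgeR adjusted p = 0.0656) and without replicate 2 of 20-25 d, although the libraries of the stages did not overlap.

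The gene with the most counts was the same in the 20-25 d libraries and different in each 40 d library. Counts were not corrected for gene length, so this order is one of counts and not of transcript number. MELO3C026550.2 led all 20-25 d libraries, at 12085, 25137 and 10311 CPM, and stood at 2581, 974 and 4901 CPM at 40 d. Its libraries did not overlap, but the change did not pass the threshold (log2 fold change -2.27, SE 0.90, edgeR adjusted p = 0.0659). It passed by DESeq2 (adjusted p = 0.0165) and in the edgeR fit of only the 6 libraries (adjusted p = 0.0458).

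At 40 d the leading genes varied strongly between libraries. MELO3C025025.2 led replicate 1 at 16617 CPM and had 1432 CPM in replicate 2 and 18994 CPM in replicate 3, against 1041, 3773 and 422 CPM at 20-25 d (edgeR adjusted p = 0.069). MELO3C031322.2 led replicate 2 at 31709 CPM, with 13298 and 3070 CPM in replicates 1 and 3, against 1254, 2401 and 3943 CPM at 20-25 d (edgeR adjusted p = 0.135). In both cases a 40 d library lay within the range of the younger fruits. By DESeq2 both changes passed (adjusted p = 0.0143 and 0.0405), and MELO3C031322.2 also did in the edgeR fit of only the 6 libraries (adjusted p = 0.042), as did MELO3C025025.2 without replicate 2 of 20-25 d (edgeR adjusted p = 0.0406). MELO3C005161.2 led replicate 3 at 33436 CPM, whereas replicates 1 and 2 had 456 and 288 CPM and the 20-25 d libraries 63.5, 246 and 735 CPM. Its call (log2 fold change 5.33, edgeR adjusted p = 0.0173) rested on that library: without it the log2 fold change was 0.36 (edgeR adjusted p = 0.848).

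**Figure D3:**
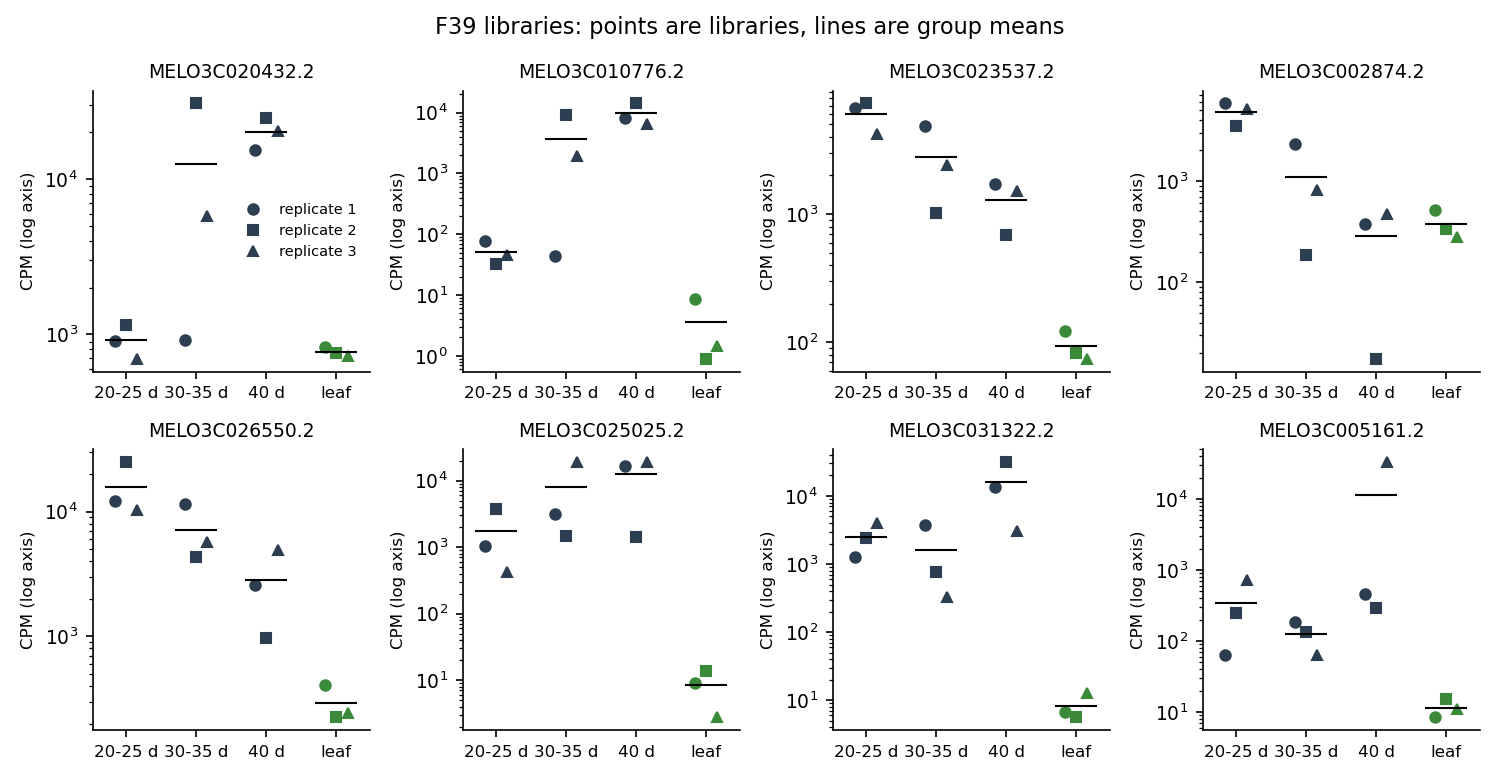
CPM (logarithmic axes) of 8 genes in the F39 libraries of fruit at 20-25, 30-35 and 40 d and of leaf, with points for libraries and lines for group means. The top row holds the genes with the largest gains and losses of CPM among called genes whose stages do not overlap, and the bottom row the genes that led a library, 3 of which overlap between 20-25 d and 40 d.

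The pool of counts moved from one set of genes to the other. Genes called higher held 8.89%, 7.70% and 8.47% of all counts in the 20-25 d libraries and 34.9%, 40.2% and 38.1% at 40 d. Genes called lower held 31.0%, 29.3% and 29.2% at 20-25 d and 6.43%, 4.27% and 6.20% at 40 d. Since the calls chose these genes, the shares describe the size of the change and do not test it. With genes called without replicate 2, those higher held 30.8% and 34.2% in replicates 1 and 3 and 29.4% in replicate 2, and those lower 3.17%, 3.09% and 2.56%.

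Counts were also held by fewer genes at 40 d. The 50% most counted share was held by 633, 461 and 575 genes at 20-25 d and by 456, 243 and 400 genes at 40 d, with replicate 2 the lowest. After each library was thinned to 6500255 counts, 12231, 11625 and 12183 genes had at least 10 counts at 20-25 d, and 11151, 10823 and 10744 at 40 d. The groups did not overlap in either measure, for which 3 libraries against 3 gave the smallest p that the exact permutation test allows (two-sided p = 0.1 each). Genes with any count in the thinned libraries averaged 14694 ± 428 in the young fruits and 14851 ± 458 in the 40 d fruits (mean ± SD of 3 libraries; exact permutation p = 0.7, two-sided).

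**Figure D4:**
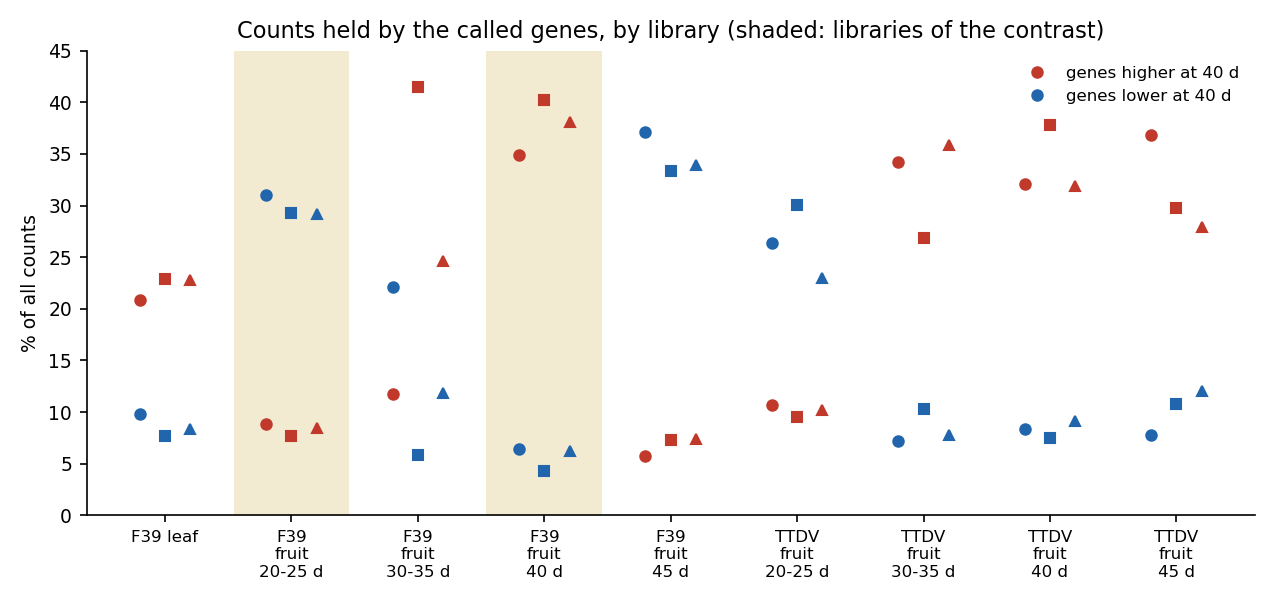
Percent of all counts held by the 1692 genes called higher (red) and the 2262 called lower (blue) at 40 d, in each of the 27 libraries, grouped as attached in GEO. Circles, squares and triangles are replicates 1, 2 and 3, and the shaded stages are those compared. The 40 d libraries hold 34.9% to 40.2% in the red set, and F39 30-35 d spans 11.8% to 41.5%.

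Few genes switched between presence and absence. At least 1 CPM in every library of one stage and under 0.1 CPM in every library of the other was found for 9 genes present at 40 d and 58 present at 20-25 d, while 9773 genes reached 1 CPM in all 6 libraries. At 40 d, 0.1 CPM is less than 1 count in each library, so that absence means no count there, which allows 0.324 to 0.462 CPM. Without replicate 2 of 40 d the sets held 22 and 97 genes. The 58 genes had a median level of 4.42 CPM at 20-25 d, and in F39 30-35 d 33, 0 and 13 of them reached 1 CPM in replicates 1, 2 and 3. Of the 9 genes, 1, 7 and 7 did so in these libraries.

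Replicates of 40 d differed most through replicate 2. It was more than 4-fold above both other replicates for 306 of the 15130 genes (2.02%) and more than 4-fold below both for 489. For replicates 1 and 3 the numbers were 80 and 43 above, and 15 and 155 below, and at 20-25 d they ran from 75 to 141 above and from 56 to 206 below. At F39 30-35 d replicates 1, 2 and 3 had 445, 250 and 180 above, and 208, 945 and 65 below. Departures as large as those of replicate 2 of 40 d thus also occurred at that stage. The 306 genes held 13.4% of the counts of replicate 2, against 1.41% and 0.665% in replicates 1 and 3. Among the other libraries the highest shares were 9.38% in replicate 1 of TTDV 45 d, where the other replicates had 2.53% and 2.24%, and 8.01% in replicate 2 of F39 30-35 d, where they had 0.76% and 0.563%. Of these 306 genes, 65 (21.2%) were among the genes called higher at 40 d and 10 (3.27%) among those called lower, beside 11.2% and 15% of all genes tested. Being high in a 40 d library was what chose them, so nothing is read from this split.

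The genes called in the comparison were followed in libraries outside the stages compared. Those libraries shared in the filter, the scaling and the spread of the fit, so they are not independent of the calls. In the fit of only the 6 libraries 83.9% of the calls remained. Each gene's level, as log2(CPM + 0.5) with CPM divided by the TMM factors of the fit, was placed on a scale from its 20-25 d mean (0) to its 40 d mean (1). In replicate 1 of F39 30-35 d the median position was 0.21 for rising and 0.23 for falling genes. In replicate 2 it was 1.08 and 0.92, near the 40 d end. In replicate 3 it was 0.70 and 0.58, with 72.3% and 60.5% of the genes past the midpoint. Without TMM factors the medians in replicate 3 lay further apart, at 0.89 and 0.49.

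In leaf, called genes of both sets were widely present. At least 1 CPM in all leaf libraries was found for 86.1% of the rising and 85.7% of the falling genes, against 74.8% of all genes tested (88.1%, 90.4% and 80.1% with TMM scaling), and called genes were also the more abundant ones in fruit. The position of leaf depended on the scaling, since its TMM factors of 0.53 to 0.604 were far below the 1.043 to 1.26 of young fruit. With TMM factors the medians were 0.29, 0.29 and 0.30 for rising genes and 0.27, 0.34 and 0.27 for falling genes. Without them rising genes turned to below the young-fruit level, at -0.19, -0.30 and -0.26, and falling genes stood at 0.59, 0.73 and 0.67. In TTDV fruit at 45 d both sets were nearer to the 40 d end, with TMM-scaled medians of 0.66 to 0.74 for rising and 0.79 to 0.95 for falling genes in the 3 libraries.

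**Figure D5:**
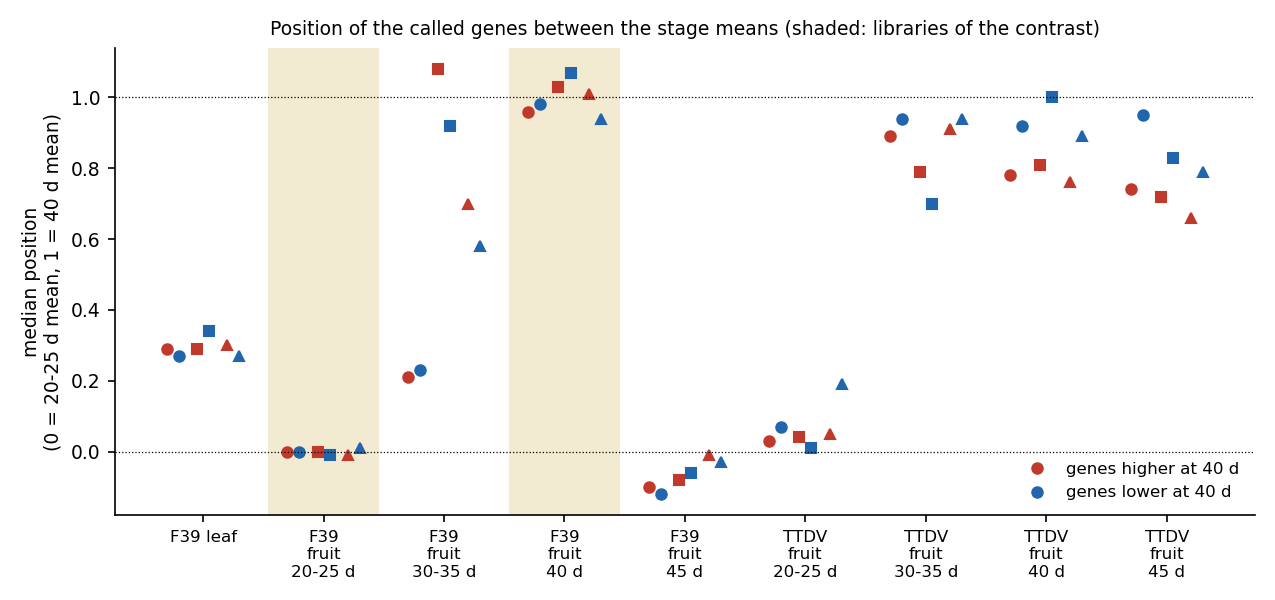
Median position of the genes called higher (red) and lower (blue) at 40 d in each library, from the F39 20-25 d mean (0) to the 40 d mean (1) on a log2(CPM + 0.5) scale with TMM factors, grouped as attached in GEO. Circles, squares and triangles are replicates 1, 2 and 3, and the shaded libraries set the scale; in F39 30-35 d the red medians run from 0.21 to 1.08.

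The same genes were examined in TTDV, whose libraries are not shared with the F39 stages. The files attached to TTDV 20-25 and 30-35 d are TTDV under both matchings (30-35 and 40 d by library number). Between these groups 960 of the 1692 genes that rose in F39 rose (56.7% of the F39 list and 50.6% of the TTDV list), where 12.5% of all genes tested rose. Of the 2262 genes that fell in F39, 1265 fell (55.9% and 61.1%), where 13.7% of all genes tested fell, and 17 and 4 genes were called in opposite directions. Without replicate 2 of F39 40 d, 722 of 1187 and 924 of 1407 genes were called the same way.

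The difference between this TTDV change and the F39 change was itself tested. The F39 change ran from 20-25 to 40 d, so the stages compared differ as well as the cultivars. It passed the threshold for 41 genes, 0.271% of those tested, with 11 differing towards a higher change in TTDV (0.0727%) and 30 towards a lower one (0.198%). Of the 41, 22 (53.7%) had risen and 10 (24.4%) had fallen in F39, where 11.2% and 15% of all genes tested had. Since the F39 change is part of the difference, nothing is read from these shares. The number was 42 without replicate 2 of 40 d, but 2 and 8 without replicates 1 and 3 of 20-25 d, 5 without replicate 3 of 40 d, and 321 by DESeq2. MELO3C018623.2 rose in F39 from 12.6, 9.45 and 12.7 CPM to 43.1, 82.9 and 79.5 CPM, and went in TTDV from 202, 80.6 and 45.5 CPM to 27, 27.5 and 43.9 CPM. The log2 changes differed by -4.74 (TTDV minus F39, SE 0.77, edgeR adjusted p = 0.013), and the TTDV log2 fold change was -1.86 (edgeR adjusted p = 0.0149). By CPM of the library total every F39 library pair rose and every TTDV pair fell. The closest TTDV pair, replicate 3 of each group at 45.5 and 43.9 CPM, had TMM factors of 1.302 and 1.059. With these factors that pair rises, so the separation in TTDV depends on the scaling. MELO3C002729.2 fell in both changes, more from 20-25 to 40 d in F39 than in this TTDV change. In F39 it went from 115, 84.7 and 93.3 CPM to 0.94, 0.308 and 1.30 CPM, a log2 fold change of -6.51 (SE 0.72, edgeR adjusted p = 3.34e-05). In TTDV it went from 25.4, 68.7 and 172 CPM to 16.4, 10.8 and 50.5 CPM (log2 fold change -1.64, edgeR adjusted p = 0.0333), and the changes differed by 4.86 (SE 0.85, edgeR adjusted p = 0.0232). At 30-35 d F39 had 17.1, 3.78 and 22.0 CPM of this gene. With TTDV 40 d in place of 30-35 d the difference was 1.70 as attached (edgeR adjusted p = 0.269). By library number it was 4.02 (edgeR adjusted p = 0.101).

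The change from 20-25 to 40 d as labelled in TTDV depended on how files were matched. As attached, 858 of the 1692 rising genes rose in TTDV and 1439 of the 2262 falling genes fell, where 15% and 21% of all genes tested did so, and 86 and 25 went the opposite way. By library number 1196 rose and 1568 fell, where 18.1% and 17% did so, and 3 and 9 went the opposite way. As attached, the TTDV change differed from the F39 change for 729 genes (4.82%), upwards for 267 (1.76%) and downwards for 462 (3.05%), and for 511 without replicate 2 of F39 40 d. By library number it differed for 0 genes by edgeR, beside 1414 genes at an unadjusted p under 0.05, and for 117 genes by DESeq2. The libraries attached to TTDV 40 d, which are F39 45 d by library number, had 0 counts of the 4 TTDV-side genes, and 26, 2 and 22 counts of the F39-side gene. The libraries attached to F39 45 d, TTDV 20-25 d by library number, had 27.7, 52.5 and 65.0 CPM of the TTDV-side genes, with 3.22 CPM of the F39-side gene in replicate 1 and none in the other two.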

How the data were processed

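Per the labels' protocols, RNA from powdered frozen tissue was treated with DNase and turned into libraries with a kit for mRNA from NuGen. The authors deposited raw counts per gene, 1 file per library, as whole numbers. STAR 2.5.4b and edgeR 3.12.1 appear in the submitters' processing notes without a role. Which counting program, genome build, annotation or strand setting was used is not given in the sources used here, so counts of overlapping or near-identical genes are uncertain.

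Groups came from titles and files from their attachment in GEO. Genes passing filterByExpr (15130 of 25200) were scaled by TMM and fitted with 9 group means over all 27 libraries, by robust quasi-likelihood F-tests with Benjamini-Hochberg adjustment at 0.05 (edgeR 4.0.16, limma 3.58.1, R 4.3.3). Spread was therefore shared by all groups. The SE is the log2 fold change divided by the root of F. CPM uses the library total. DESeq2 1.42.0 was an alternative. Descriptions and figures used Python 3.11.15, pandas 2.3.3, numpy 2.4.6 and matplotlib 3.10.9.

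Named genes were the 2 rising and 2 falling with the largest change in mean CPM among calls with separated libraries, the gene with most counts in each of the 6 libraries and, for each difference between cultivars, up to 2 genes each way by log2 difference with a mean log2 CPM of at least 3. Genes separating the cultivars, the values without replicate 2 of 40 d and the TMM-scaled positions and counts of separated libraries were added after seeing the data. Comparisons, lists and rules were all chosen with earlier results of these data known. Gene lists by product name were not used, since identifiers carry no names. No 2 replicates were identical.

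The edgeR step was tested on simulated counts of 14801 genes for F39 40 d against 20-25 d, with 200 genes changed. It recovered 0 of 100 genes changed 2-fold and 22 of 100 changed 4-fold, with 1 false call. In the data 26.1% of the genes tested were called, a far larger share than was changed in the simulation. The Benjamini-Hochberg cut was therefore stricter in the simulation, and these rates are not the power of the real comparison. Depth of 6500255 to 15982120 counts per library limits scarce genes.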

Additional observations from a re-analysis of the deposited data

Results flagged for a closer look

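The change from 20-25 to 40 d differed for 729 genes between F39 and TTDV as attached in GEO, and for 0 genes by library number (edgeR). The libraries attached to TTDV 40 d had 0 counts of the 4 TTDV-side genes, and 26, 2 and 22 of the F39-side gene. The origin of these counts was not tested, and the 729 genes are not read as a difference between cultivars. Of them, 410 (56.2%, against 73.9% of all genes tested) were not called in F39. Since the F39 change is part of the difference, nothing is read from this share. The F39 change differed for 41 genes from the attached TTDV change between 20-25 and 30-35 d. In the first set the 2 genes with the largest difference towards a higher change in attached TTDV were MELO3C035133.2 (difference of log2 changes 9.28, edgeR adjusted p = 0.0177) and MELO3C017682.2 (8.38, edgeR adjusted p = 0.0173). By library number MELO3C035133.2 had the opposite sign but was not called (-6.69, edgeR adjusted p = 0.473). The libraries that are TTDV 40 d by library number had 0 counts of it, so that value depends on the prior count. The call for MELO3C017682.2 was lost without replicate 1 of 20-25 d (edgeR adjusted p = 0.0594), without replicate 3 of 40 d (0.0545) and by library number (0.308). Towards a higher change in F39 they were MELO3C022991.2 (-22.9, edgeR adjusted p = 0.0281) and MELO3C027442.2 (-18.64, edgeR adjusted p = 0.012). Both of the latter had no count in F39 20-25 d and in TTDV 40 d as attached, so the fitted values depend on the prior count and bound nothing. In F39 40 d MELO3C022991.2 had 0, 9.23 and 0 CPM and MELO3C027442.2 had 0, 5.08 and 0.216 CPM. MELO3C027442.2 is 1 of the 4 TTDV-side genes, so its level in replicate 2 repeats the result for those genes. Both calls were lost without replicate 2 and by library number (edgeR adjusted p = 0.308 and 0.445). With DESeq2 by library number that of MELO3C022991.2 passed (adjusted p = 3.9e-09). The call for MELO3C022991.2 was also lost without any 1 of the 20-25 d libraries.

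In the second set the differences were 5.70 for MELO3C006585.2 (edgeR adjusted p = 0.0364), 4.86 for MELO3C002729.2, -4.91 for MELO3C011818.2 (edgeR adjusted p = 0.0364) and -4.74 for MELO3C018623.2. MELO3C006585.2 fell in F39 from 8.17 ± 1.86 to 0.477 ± 0.054 CPM and stood in TTDV at 1.06 ± 0.778 and 3.82 ± 3.23 CPM (SD, n = 3 each). MELO3C011818.2 rose in F39 from 27.9 ± 9.15 to 108 ± 29.9 CPM and went in TTDV from 169 ± 195 to 30.0 ± 4.27 CPM (SD, n = 3 each). The calls for MELO3C006585.2, MELO3C002729.2, MELO3C011818.2 and MELO3C018623.2 were lost in 6, 2, 4 and 1 of the 6 fits without 1 library.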

How the results depend on the processing

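The total of 3954 called genes stayed within 1.5 times under DESeq2, median-of-ratios scaling, no filter, a stricter filter, no robust weights, only the 6 libraries and only the 15 libraries whose numbers agree, at 3229 to 4895 genes. Leaving out 1 library gave 2594 to 2976 genes, with 1107 to 1352 higher and 1407 to 1738 lower. The difference between the F39 change and the attached TTDV change at 40 d (729 genes) gave 1436 by DESeq2, 0 by library number (117 there by DESeq2), and 367 to 602 without 1 F39 library. MELO3C035133.2 reversed by library number, to -6.69 by edgeR (adjusted p = 0.473) and -20.86 by DESeq2 (adjusted p = 8.87e-17), with 0 counts in the libraries that are then TTDV 40 d. The difference for TTDV 30-35 d (41 genes) gave 321 by DESeq2, 66 with median-of-ratios scaling, 72 with the stricter filter, and 2 to 49 without 1 F39 library, being 2 or 8 when 20-25 d lacked replicate 1 or 3, and 5 when 40 d lacked replicate 3. The sets of 9 and 58 genes present at one stage held 3 and 8 at a presence level of 5 CPM, and 12 to 23 and 73 to 107 without 1 library. Dropping a library loosens the filter and the presence rule and lowers the number of libraries, and other causes were not tested. With presence at 0.5 CPM, replicate 2 of 40 d held 6 of 8 TTDV-side genes and 0 of 2 F39-side genes. It had 3 counts (0.462 CPM) of 1 of these 2 genes, just under that level. Replicate 3 of 40 d reached the level for 1 of the 2. No paired analysis was possible because the labels do not link libraries of one group to those of another.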
